A study of Mus musculus with 6 samples.

Results

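The genes described here are ERK feedback and output genes, 10 in all: the phosphatases Dusp4 and Dusp6, the inhibitors Spry1, Spry2, Spry4 and Spred1, the Ets factors Etv4 and Etv5, and the further targets Phlda1 and Epha2. They were chosen by symbol, and every probe set that the platform annotation gives to 1 of these symbols was taken. That gave 14 probe sets for 9 genes, out of 22626 probe sets that are not array controls. No probe set was named for Dusp4, which is not analysed here. The RNA came from retinae of mice at postnatal day 7, from 3 wildtype samples labelled C57BL/6 and 3 knockout samples also labelled C57BL/6, with 1 Affymetrix array per sample. The knockout is given in the labels as a feature of the strain and not of a single retinal cell type. No treatment beyond dissection of the retina is given, and the labels do not say whether a sample held 1 animal or a pool. The comparison asks which of these transcripts differ between the knockout and the wildtype retina at an age when its layers are still maturing. Because whole retinae were measured, fewer cells of a type and less RNA per cell cannot be told apart.

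ERK is the last kinase of a cascade in which growth factor receptors act through Ras, Raf and MEK. Active ERK switches on genes, and some of those genes encode its own brakes. Dusp phosphatases remove phosphate from ERK, and Sprouty and Spred proteins act on the steps upstream of it. Etv4 and Etv5 are transcription factors whose levels follow fibroblast growth factor signals in many tissues, so RNA of this group is often read as a record of recent ERK activity. In the eye, fibroblast growth factor signals through ERK act in the patterning of the optic cup, in the onset of retinal neurogenesis and in the growth of lens fibres.

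No ERK feedback or output gene passed the test between knockout and wildtype retinae. Of 11 tested probe sets from 7 of these genes, 0 reached an adjusted p under 0.05 (limma, Benjamini-Hochberg), against 0.0147% of all 13575 probe sets tested. The ordinary equal-variance statistic called 0 of all 13575, so its count of 0 for the members says nothing particular to them. The tested probe sets had mean signals above 62.4, the 40th percentile, after each array was rescaled to the same trimmed mean. Their log2 fold changes, knockout minus wildtype, were positive in 5 cases and negative in 6, and ranged from -0.62 for Etv5 to 1.33 for Epha2. All fold changes are on the scale of log2(signal + 19.1), which understates those of dim probe sets. The median was -0.026 over the 11 probe sets and 0.00031 over all tested. The median size without regard to sign was 0.24 for the members and 0.13 over all tested. An unadjusted limma p under 0.05 was found for 3 of the 11, those of Epha2, Etv5 and Phlda1, and for 3.82% of all probe sets tested. The limma adjusted p of each of the 11 was 0.999. Of the 11, 3 had a mean above the level for testing in 1 group only: Epha2 in the knockout, and Etv5 1420998_at and Spred1 1423162_s_at in the wildtype. A difference in that direction was a condition of their being tested, so the counts and medians over the 11 are a description.

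**Figure D1:**
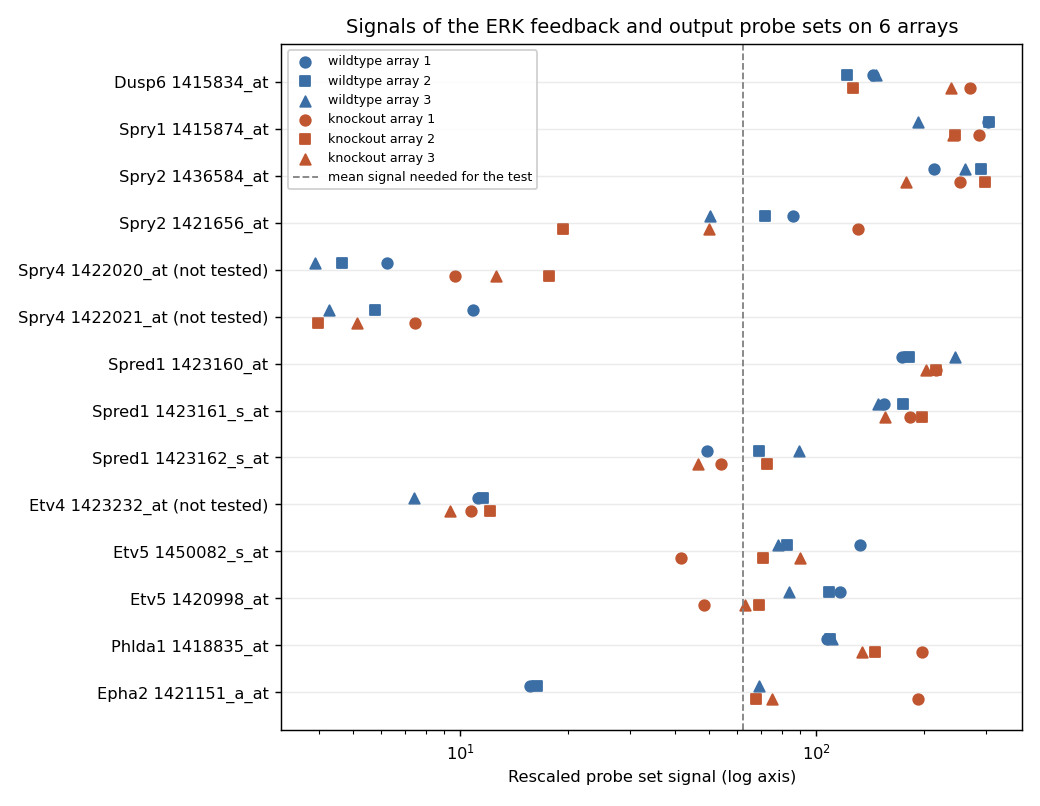
Rescaled signal of each of the 14 probe sets on each of the 6 arrays, on a log axis, with 1 point per array. The dashed line marks the mean signal of 62.4 that a probe set needed to be tested. Epha2 was near 16 on wildtype arrays 1 and 2 and above 60 on the other arrays, Phlda1 was higher on all 3 knockout arrays and Etv5 1420998_at was lower on all 3.

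Arrays differed in level, in control signals and in markers of other cell types. The trimmed mean of the deposited signals ranged from 171 to 312 over the arrays, and without rescaling 87.6% of all tested probe sets had a positive log2 fold change, against 50.1% with it. Knockout array 1 stood apart, with correlations of 0.914 to 0.936 to the other arrays, against 0.958 to 0.979 among the other 5. The Actb control, whose 3' and 5' ends are read by separate probe sets, had a 3' signal 1.64, 1.44 and 1.59 times its 5' signal on wildtype arrays 1 to 3 and 2.17, 1.69 and 1.90 times on knockout arrays 1 to 3. This sign of RNA quality was higher on all 3 knockout arrays, so it moved with the groups and with every member difference below, and its part in them was not tested. The same measure for Gapdh overlapped between the groups, at 0.82 to 0.98 in wildtype and 0.88 to 1.18 in knockout. The mean signal of the 3 probe sets for 18S ribosomal RNA was 983 on wildtype array 2 and 273 on knockout array 1, against 56.1 to 63.6 on the other 4. Of the 11 member probe sets, 4 were highest on knockout array 1 and 2 were lowest there, while over all tested probe sets these shares were 25.3% and 28.2%. The 4 were those of Dusp6, Phlda1, Epha2 and the dimmer Spry2 probe set, and the 2 were both Etv5 probe sets. For this reason the values without this array are given below. Rod markers, among them Sag and Nrl, summed to rescaled signals between 17579 and 21416 on all 6 arrays, and all 5 rod genes with a named probe set were bright enough to be tested.

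**Figure D2:**
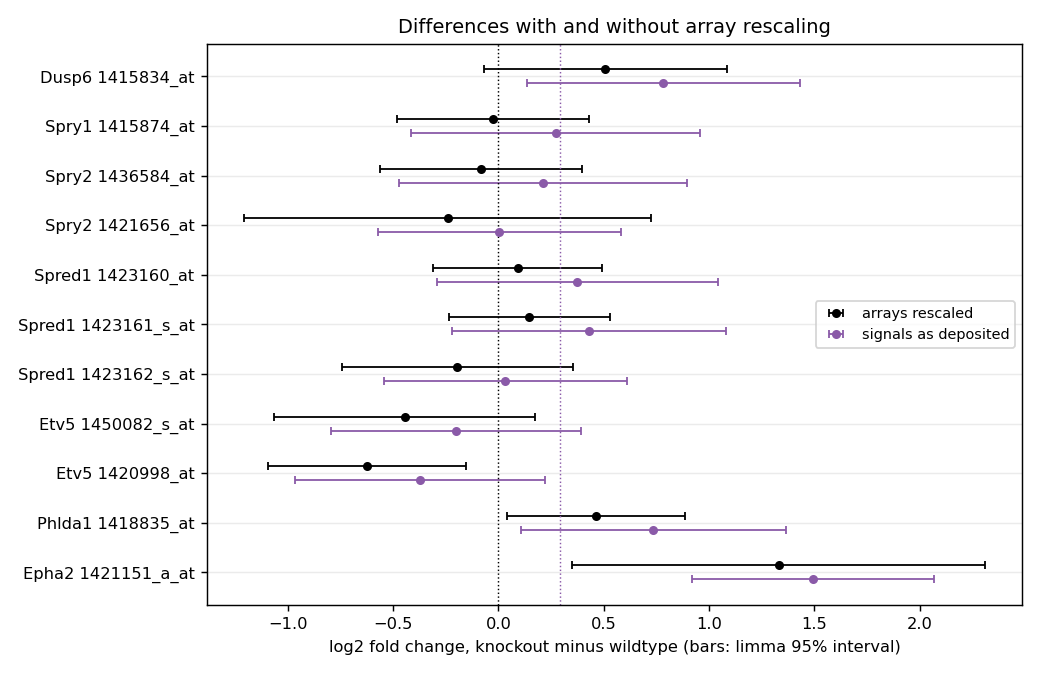
log2 fold change of each tested probe set, knockout minus wildtype, with limma's 95% interval, after rescaling (black) and on the signals as deposited (purple). The dotted lines mark the median of all tested probe sets, 0.00031 with rescaling and 0.29 without it. Without rescaling the members lay to the right, as did the median of all probe sets.

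Dusp6 was the only phosphatase of the group with a named probe set. It removes phosphate from ERK in the cytoplasm and is itself switched on by ERK. Its rescaled signal was 144, 121 and 147 on wildtype arrays 1 to 3 and 271, 127 and 239 on knockout arrays 1 to 3. Knockout arrays 1 and 3 were above all wildtype arrays, while knockout array 2 lay among them, so the groups overlapped. Wildtype arrays averaged 137 ± 13.9 and knockout arrays 212 ± 75.6 (SD, n = 3), a ratio of 1.54. The log2 fold change of 0.51 ± 0.26 (SE) had a 95% interval from -0.069 to 1.08 and a limma adjusted p of 0.999. It was 0.32 without knockout array 1, 0.81 without knockout array 2 and 0.78 without rescaling. A larger absolute log2 fold change was found for 5.69% of all tested probe sets.

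The Sprouty genes encode inhibitors that bind near the membrane and dampen signals from receptor to Ras and Raf. Spry1 had rescaled signals of 303, 305 and 193 on the wildtype arrays and 286, 244 and 242 on the knockout arrays. The knockout values all lay inside the wildtype range. Its log2 fold change was -0.026 ± 0.20 (SE; 95% interval -0.48 to 0.43).

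Spry2 was read by a pair of probe sets. The brighter, 1436584_at, had 213, 290 and 262 on the wildtype arrays and 253, 298 and 178 on the knockout arrays, with a log2 fold change of -0.081 ± 0.21 (SE). The dimmer, 1421656_at, had 85.9, 71.6 and 50.2 on the wildtype arrays and 131, 19.4 and 50.1 on the knockout arrays. Its knockout arrays covered a wider range than its wildtype arrays, with the highest and the lowest value both in the knockout group. Its log2 fold change was -0.24 ± 0.43 (SE; 95% interval -1.21 to 0.73), and it was -0.75 without knockout array 1 and 0.23 without knockout array 2. The 2 probe sets placed the arrays in different orders: knockout array 2 was the highest on the brighter one and the lowest on the dimmer one.

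Spry4 stayed below the level for testing on both of its probe sets, which were designed from the same sequence. One of them, 1422020_at, had 6.23, 4.66 and 3.90 on the wildtype arrays and 9.64, 17.7 and 12.6 on the knockout arrays. All 3 knockout values were above all 3 wildtype values, but every one was under the pseudocount of 19.1. The other, 1422021_at, had 10.8, 5.74 and 4.27 in wildtype and 7.45, 3.99 and 5.13 in knockout, and its groups overlapped. No detection calls were used here, so whether either reads RNA of Spry4 or background was not tested.

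Spred1, which like the Sproutys holds back the step from Ras to Raf, was read by 3 probe sets designed from 1 sequence. The brightest, 1423160_at, had 174, 182 and 245 on the wildtype arrays and 217, 217 and 203 on the knockout arrays. All 3 knockout values lay inside the wildtype range, and the log2 fold change was 0.092 ± 0.18 (SE; 95% interval -0.31 to 0.49). The other probe sets had log2 fold changes of 0.15 ± 0.17 (1423161_s_at) and -0.19 ± 0.24 (1423162_s_at). Both of these carry the suffix of probe sets that can hybridise with related transcripts. None of the 3 had groups that did not overlap.

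Etv5 had the most negative values among the members. It is an Ets transcription factor that carries fibroblast growth factor signals to the nucleus. On 1420998_at the rescaled signal was 117, 108 and 83.8 on the wildtype arrays and 48.3, 68.8 and 63.0 on the knockout arrays. All 3 knockout arrays were below all 3 wildtype arrays, a separation in this direction that 5.05% of all tested probe sets showed. Wildtype arrays averaged 103 ± 17.1 and knockout arrays 60.04 ± 10.5 (SD, n = 3), 1.71 times lower and below the level for testing. The log2 fold change of -0.62 ± 0.21 (SE) had a 95% interval from -1.09 to -0.16 and a limma adjusted p of 0.999. The second probe set, 1450082_s_at, had 133, 82.8 and 77.8 in wildtype and 41.5, 70.8 and 89.9 in knockout, so its groups overlapped because of knockout array 3. Its log2 fold change was -0.45 ± 0.28 (SE). Both probe sets were designed from the same sequence and are not independent measurements of the gene. Without knockout array 1 their log2 fold changes were -0.51 and -0.21, and without rescaling they were -0.37 and -0.20, with overlapping groups for both. The related factor Etv4 was below the level for testing, with signals between 7.41 and 12.1 on all 6 arrays.

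Phlda1 encodes a small protein with a pleckstrin homology-like domain and is a target gene of growth factor signals. Its rescaled signal was 107, 109 and 111 on the wildtype arrays and 198, 146 and 134 on the knockout arrays. The wildtype values were close together, and all 3 knockout values were above them, as was so for 4.05% of all tested probe sets. Wildtype arrays averaged 109 ± 1.60 and knockout arrays 160 ± 34.03 (SD, n = 3), a ratio of 1.46. The log2 fold change of 0.46 ± 0.19 (SE) had a 95% interval from 0.039 to 0.89 and a limma adjusted p of 0.999. It was 0.31 without knockout array 1 and 0.74 without rescaling. Phlda1 and the Etv5 probe set 1420998_at were the 2 of 11 member probe sets whose groups did not overlap, and 9.1% of all tested probe sets had such groups. As deposited, before rescaling, only Phlda1 of the 11 kept groups apart. At that setting 8.38% of all tested probe sets were higher on all knockout arrays and 0.258% were lower on all of them.

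Epha2 had the largest difference among the members. It encodes a receptor tyrosine kinase for ephrin-A ligands, is a transcriptional target of the Ras and ERK cascade, and is known in the eye for its role in the lens. Its rescaled signal was 15.6, 16.4 and 68.8 on wildtype arrays 1 to 3 and 193, 67.4 and 74.8 on knockout arrays 1 to 3. Wildtype arrays 1 and 2 were low, below the pseudocount, and knockout array 1 was high. Wildtype array 3 lay between knockout arrays 2 and 3, so the groups overlapped. Wildtype arrays averaged 33.6 ± 30.5 and knockout arrays 112 ± 70.5 (SD, n = 3), a ratio of 3.33. The log2 fold change of 1.33 ± 0.44 (SE) had a 95% interval from 0.35 to 2.31 and a limma adjusted p of 0.999. It reached the level of 62.4 needed for testing only through the knockout arrays, since its wildtype mean was below it. A larger absolute log2 fold change was found for 0.0737% of all tested probe sets. The log2 fold change was 0.92 without knockout array 1, 1.77 without wildtype array 3 and 0.71 without both wildtype array 2 and knockout array 1. A pseudocount at the 40th percentile of all signals gave 0.84, and one at the 10th percentile gave 1.66. This is the only Epha2 probe set, and its suffix marks one that can hybridise with several transcripts of a gene.

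Without rescaling the Epha2 probe set passed the test, and it was the only member that did so in any setting run. Its deposited signals were 13.1, 10.9 and 83.5 on the wildtype arrays and 229, 72.7 and 76.6 on the knockout arrays. Wildtype array 3 was above knockout arrays 2 and 3, so the groups overlapped there too. The log2 fold change then came to 1.49 ± 0.29 (SE), with a limma adjusted p of 0.00099, and 10 probe sets in all passed, 0.0737% of those tested. In that fit limma estimated the prior degrees of freedom as infinite, so the SE came from the intensity trend alone. The SE from the spread of the Epha2 values themselves was 0.75. With rescaling these figures were 0.44 from limma and 0.60 from the probe set's own spread.

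Lens markers varied more over the arrays than any other of the 14 marker lists. Of 21 lens genes, chiefly crystallins, 16 had a named probe set and 8 were bright enough to be tested. Their summed rescaled signal was 318, 356 and 1992 on wildtype arrays 1 to 3 and 891, 530 and 1254 on knockout arrays 1 to 3. Wildtype arrays 1 and 2 were the lowest for the lens markers and for Epha2, but the highest array was wildtype 3 for the lens markers and knockout 1 for Epha2. With the lens list as a covariate the log2 fold change of Epha2 was 1.17. Summed microglia markers, with 5 of 6 genes tested, were 1518 on knockout array 1 and 781 to 945 on the other arrays. Retinal progenitor markers, with 6 of 8 tested, were also highest on knockout array 1, at 3598 against 2763 to 3020 elsewhere. Of the 3598, Ccnd1 gave 1658, and its own highest array was knockout 3, at 1744. Ccnd1 is also counted below among the other ERK target genes. Pigment epithelium markers, with 5 of 7 tested, were highest on knockout array 1 too, at 3188. Wildtype array 1, at 2853.5, and knockout array 3, at 2834, came close to it for this list. The lowest was wildtype array 2, at 1069. Markers of cornea and ciliary epithelium, with 2 of 7 tested, had 652 on knockout array 1 and 412 to 468 elsewhere. Rod markers were lowest there, at 17579. The lens covariate used the lens list alone. The part of the other cell types in the values of Epha2, Dusp6 and Phlda1 was not tested. Knockout array 1 also differed in its control signals, so leaving it out cannot separate these cell types from RNA quality.

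**Figure D3:**
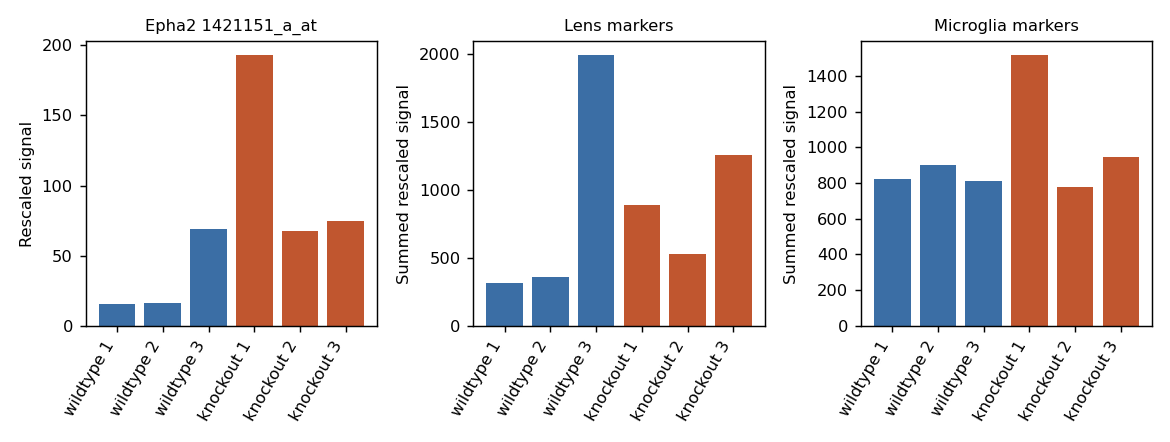
Bars give the rescaled Epha2 signal and the summed rescaled signals of the tested lens and microglia markers on each array, wildtype in blue and knockout in orange, with 1 bar per array and no error. Epha2 and the microglia markers were highest on knockout array 1, at 193 and 1518, and the lens markers on wildtype array 3, at 1992.

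Mueller glia, the main glial cells of the retina, had summed marker signals of 6706 to 7768 in wildtype and 6848 to 7710 in knockout, with 7 of 8 genes tested. Astrocyte markers, with 3 of 4 genes tested, had 217 to 279 and 276 to 285. Vessel markers, with 6 of 7 tested, had 1777 to 2192 and 1957 to 2537. The ranges of these 3 lists overlapped between the groups. Those of skeletal muscle markers, with 3 of 6 genes tested, did not: they summed to 278 to 351 in wildtype and 189 to 243 in knockout. This list was lower on all 3 knockout arrays, and its part in the member values was not tested. It was the only such list among all marker lists, and its tested genes were dim. No probe set of any marker list passed the test.

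The sequence just before the start of transcription is shown for Epha2 and Etv5, the members with the largest differences in each direction, so that the genes can be seen beside their values. Both are 250 bases from RefSeq on mouse build GRCm38.p6, and neither overlaps another RefSeq gene. The Epha2 window is chr4:141300971-141301220 on the plus strand. The Etv5 window is chr16:22439571-22439820 on the minus strand, upstream of the outer of its 2 listed starts. Capitals mark matches to GGAAGT, an Ets motif, on either strand, and to TGACGTCA, the cyclic AMP response element.
Epha2: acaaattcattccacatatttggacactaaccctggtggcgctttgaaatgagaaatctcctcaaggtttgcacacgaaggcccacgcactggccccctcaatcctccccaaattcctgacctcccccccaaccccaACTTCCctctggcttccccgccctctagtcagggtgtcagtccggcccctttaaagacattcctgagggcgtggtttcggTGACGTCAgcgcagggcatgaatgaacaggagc
Etv5: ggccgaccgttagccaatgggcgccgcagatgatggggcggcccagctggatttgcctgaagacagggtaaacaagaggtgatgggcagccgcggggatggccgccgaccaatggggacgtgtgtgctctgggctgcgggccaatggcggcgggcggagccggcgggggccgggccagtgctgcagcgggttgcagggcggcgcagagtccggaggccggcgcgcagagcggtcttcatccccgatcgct
The Epha2 window held 1 match to each, and the first base of the response element lay at -33 from the start. The Etv5 window shown held neither, while the window before its other start held 1 match to GGAAGT. Of 32851 RefSeq windows of this length, 19.7% held GGAAGT and 1.55% held TGACGTCA. Of the 10 members, 6 had an entry, with 7 windows. None of the 7 held the longer Ets motif CCGGAAGT (2.88% of all windows), the AP-1 motif TGANTCA (6.75%) or the CArG box of serum response factor (1.47%). These are matches of letters in these windows only.

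The rest of the ERK pathway was read from a list of 120 further genes, of which 104 had a named probe set and 73 were tested, with 112 probe sets. None of the 112 passed the test in either direction (limma adjusted p = 0.999 for each, as the lowest), against 0.0147% of all probe sets tested. An unadjusted limma p under 0.05 was found for 4 of the 112, and for 3.82% of all probe sets tested. The ordinary statistic called 0 of the list and 0 of all tested. By the brightest probe set, 45 genes had positive and 28 negative values, with a median log2 fold change of 0.036. Over all 112 probe sets the median was 0.013, against 0.00031 over all tested, of which 50.1% were positive. The positive share by brightest probe set over all genes was not computed, so the count of 45 is a description. Groups did not overlap for 2 of the 73 genes with the knockout higher and 2 with it lower, where all tested probe sets gave 4.05% and 5.05%.

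By the brightest probe set of each gene, the largest positive values were those of Map2k2, Grb2 and Hbegf. Map2k2, also called MEK2, is a kinase that phosphorylates ERK. Its rescaled signal was 218, 245 and 288 on the wildtype arrays and 423, 406 and 442 on the knockout arrays, without overlap, and its log2 fold change was 0.72 ± 0.16 (SE). Its other tested probe set had 0.028. Grb2, the adaptor that links receptors to Ras activation, had 0.65 ± 0.26 (SE), with overlapping groups. Without knockout array 1 it had 0.40, and its other probe set had -0.0091 with all arrays. Hbegf, a ligand of the epidermal growth factor receptor, had 80.0, 80.6 and 76.3 in wildtype and 170, 96.5 and 87.7 in knockout. Its log2 fold change was 0.44 ± 0.24 (SE), and it was 0.18 without knockout array 1 and -0.16 on its other probe set.

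By the same measure the largest negative values were those of Fgfr1, Fgf9 and Nras. Fgfr1, a receptor of fibroblast growth factors, had 74.7, 95.9 and 102 in wildtype and 25.5, 84.6 and 71.4 in knockout. The groups overlapped, with knockout array 1 far below the rest. Fgfr1 had a knockout mean of 60.5, below the level for testing. It reached that level only through its wildtype arrays, so its place here is a description. Its log2 fold change was -0.55 ± 0.31 (SE), and it was -0.17 without knockout array 1 and 0.21 on its other probe set. Fgf9, a fibroblast growth factor, had 145, 149 and 162 in wildtype and 91.1, 128 and 123 in knockout, without overlap, a log2 fold change of -0.37 ± 0.18 (SE), and -0.24 without knockout array 1. The Ras protein Nras had -0.31 ± 0.19 (SE), against 0.028 and 0.066 on its other probe sets. Dimmer probe sets of 4 genes had lower values than Fgfr1: Rasa1 (-0.63), Errfi1 (-0.62), Fgf13 (-0.61) and Shoc2 (-0.61). Each of these 4 was lowest on knockout array 1, and the brightest probe sets of the same genes had 0.067, -0.045, 0.046 and 0.29. These 4 were chosen after their values were seen. For 5 of the 6 genes named first a second probe set was tested, and in each of the 5 it had a value near 0 or of the opposite sign.

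By step of the pathway, again by the brightest probe sets, the median log2 fold change lay between 0.011 for Ets and serum response factors and 0.087 for the kinases downstream of ERK. Of 12 other phosphatases and feedback inhibitors tested, among them other Dusp genes and Spred2, 7 had positive and 5 negative values, from -0.23 to 0.27. Over all 16 tested probe sets of these genes the lowest was -0.62, of Errfi1. Of 12 other ERK target genes tested, which include immediate early genes, 8 had positive and 4 negative values, from -0.14 to 0.24. The members, taken by their brightest probe sets, had 4 positive and 3 negative values, with a median of 0.092. Over all 11 tested member probe sets the median was -0.026.

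**Figure D4:**
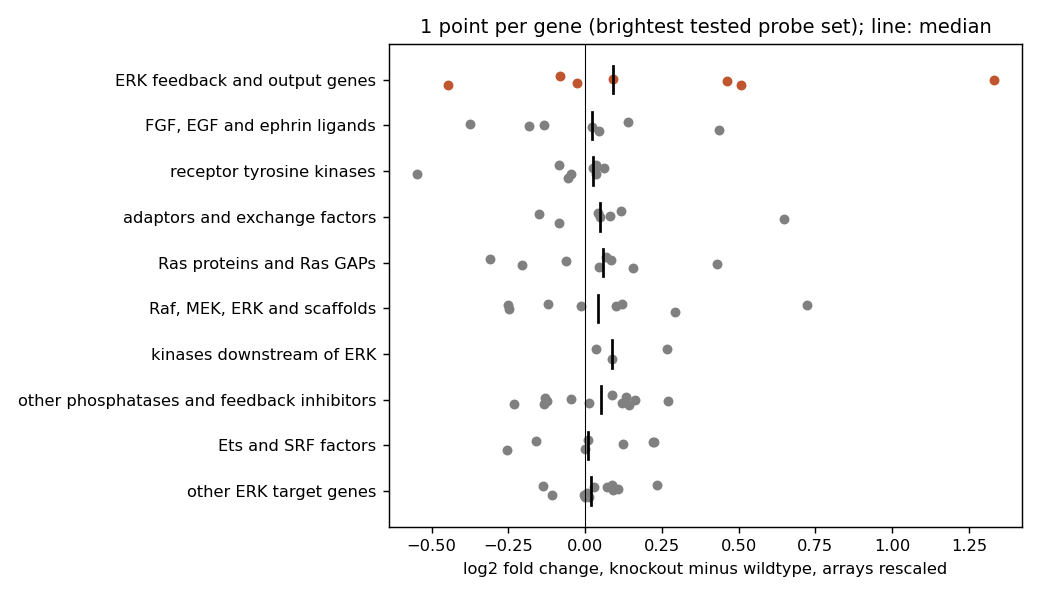
Each point is the log2 fold change of 1 gene, read by its brightest tested probe set, with the members in orange, the other genes of the ERK pathway in grey and a line at each median. The 7 members span -0.45 to 1.33, and every other list stays between -0.55 and 0.72. The upper end is Epha2 alone, which reached the level for testing only through the knockout arrays, and the next member, Dusp6, had 0.51.

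Which array was left out moved the members by different amounts. Epha2, Dusp6, Phlda1 and both Etv5 probe sets, which had the values farthest from 0 among the tested members, kept their sign in every setting run. Without knockout array 1, the values of Epha2, Dusp6, Phlda1 and both Etv5 probe sets were all nearer to 0. Without knockout array 2, those of Epha2, Dusp6, Phlda1 and both Etv5 probe sets were all farther from 0. The Spry1 and both Spry2 probe sets changed sign with the array left out.

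**Figure D5:**
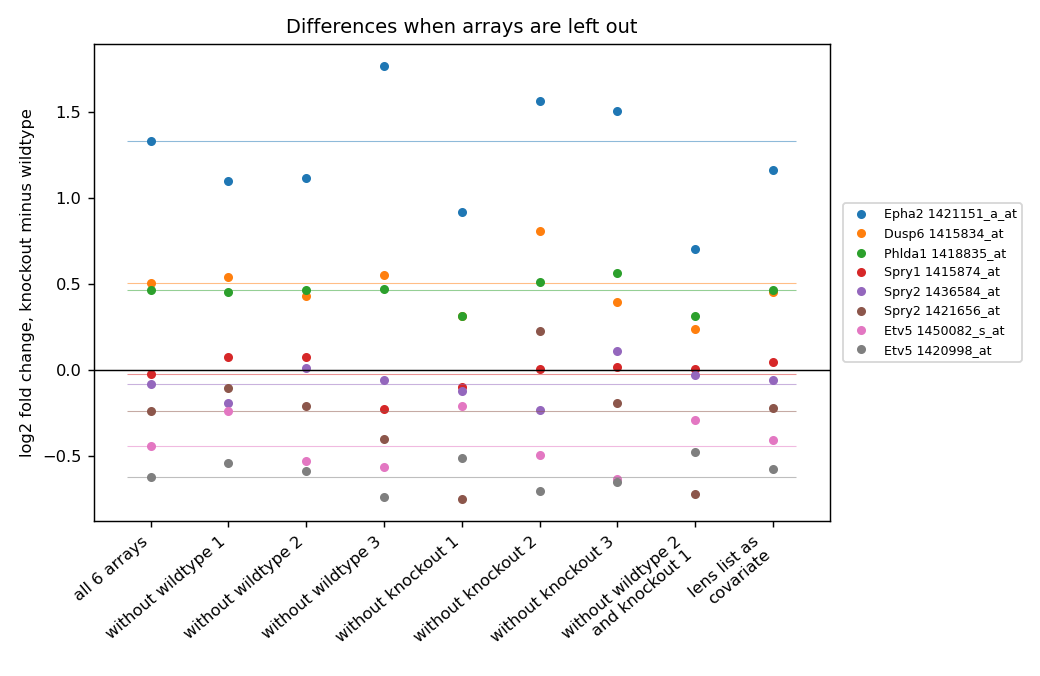
log2 fold change, knockout minus wildtype, of 8 member probe sets with all 6 arrays, with arrays left out, and with the lens list as a covariate. Horizontal lines carry the value with all arrays across the plot. Epha2 ranged from 0.71 to 1.77 here, and the Sprouty probe sets lay on both sides of 0.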

How the data were processed

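Total RNA of 6 retinal samples was measured on Affymetrix arrays. The table deposited by the authors holds 1 linear intensity per probe set and array, for which the submitters' processing notes name MAS5. The version, scaling target and detection calls are not given in the sources used here. Without the 64 controls, arrays were brought to a common mean, computed after the top and bottom 2% of signals were trimmed. Then 19.1 (the 20th percentile) was added, and log2 was taken. Probe sets with a mean above the 40th percentile, 13575, were tested in limma 3.58.1 (R 4.3.3) with lmFit, eBayes with an intensity trend and Benjamini-Hochberg adjustment over all of them. Adjusted p-values are from that fit, and 95% intervals are unadjusted.

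Symbols came from the platform annotation, updated through Entrez identifiers, of which 20351 of 20380 matched. For each gene with several probe sets the one with the highest mean signal is called the brightest. All members were named, and of the other pathway genes the 3 largest values in each direction. The members and gene lists were chosen with earlier results of these data known. Same-numbered arrays were not treated as pairs in the main fit, as in an earlier analysis of these data. Their deviations from the group means correlated at 0.18, -0.029 and 0.084, and those of differently numbered arrays at -0.29 to 0.26. With a replicate block 766 probe sets had an unadjusted limma p under 0.05, against 518 without it. The fit was tested on simulated data with normal noise, in 20 runs of 13575 probe sets with 200 changed in each. It recovered 5.6% of 1.5-fold changes, 49.7% of 2-fold changes and 89.9% of 3-fold changes. Of its calls, 5.04% were false. The simulation had no array that stood apart as knockout array 1 did, and the real fit called 2 probe sets in all. These rates therefore need not hold for the real comparison, where recovery was not measured. Most changes of 1.5-fold would be missed even in the simulated setting. The p-values rest on the spread of these samples alone, part of which may be technical. The targeted gene is not reported here.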

Additional observations from a re-analysis of the deposited data

How the results depend on the processing

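In all, 19 other settings were run, which changed the scaling, filter, pseudocount, weights, variance model or arrays used, or added a replicate block or the lens covariate. The count of member probe sets called, 0, was 1 without rescaling (Epha2, where wildtype array 3 lay above 2 knockout arrays) and 0 in every other setting run. The count for the other pathway list was 0 in every setting run. The count over all probe sets, 2, was 10 without rescaling (5 higher and 5 lower), 1 without a filter, 0 with the ordinary statistic (492 at an unadjusted p under 0.05), 1 with the lens covariate and 4 without both wildtype 2 and knockout 1. With 1 array left out it went from 0, without wildtype array 3, to 4, without wildtype array 2. With the replicate block it was 2, with 0 members, and both were the 2 called without it. The cause of these changes in the count was not tested.

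Signs turned in 15 values of the tested members, all from Spry1, Spry2 and Spred1 probe sets, whose values with all arrays were nearer to zero. They turned in 0 of the 6 other named pathway genes. Those 6 were named for their large values, which made a turn of sign unlikely from the start, so the counts cannot be compared. The sizes of these 6 still moved. Without rescaling Nras had -0.0057, Fgf9 -0.10 and Fgfr1 -0.32, while Map2k2 had 1.02, Grb2 0.94 and Hbegf 0.70. Without rescaling, Spry1 (0.27), Spry2 1436584_at (0.21), Spry2 1421656_at (0.0041) and Spred1 1423162_s_at (0.033) had positive values, while the median over all tested was 0.29. With median scaling, where that median was 0.088, Spry1 had 0.063 and Spry2 1436584_at 0.0061. Spry1 had 0.0038 without wildtype 2 and knockout 1 and 0.045 with the lens covariate. With 1 array left out Spry1 ranged from -0.23 to 0.077, Spry2 1436584_at from -0.23 to 0.11 and Spry2 1421656_at from -0.75 to 0.23. Of the 11 tested member probe sets, 5 had positive values after rescaling, 9 without it, 7 with median scaling and 5 with quantile normalization. The 3 probe sets of Spry4 and Etv4 lay below the filter and had no test. Precision is limited by the 3 arrays per group.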
